A study of Mus musculus with 12 samples.

Results

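CD8 T cells that carried a Batf3 vector were compared with cells that carried a control vector, both after 6 h of stimulation through CD3 and CD28. The comparison was chosen by the sample labels and rests on 6 of the 12 libraries of the series, 3 with the Batf3 vector and 3 with the control vector. All cells came from the spleen of OT-I mice on a C57BL/6 background, whose T cells bear a transgenic receptor for an ovalbumin peptide. Every group was transduced, the controls with an empty retroviral vector and the others with one expressing Batf3, and cells carrying a vector were sorted by flow cytometry. The stimulated cultures received plate-bound antibody to CD3e and antibody to CD28, each at 1 µg/ml. The other 6 libraries, with the same vectors, were kept for 6 h without the antibodies in medium with IL-15 at 100 ng/ml; IL-15 is named for these cultures alone. They serve here only to show where the effect of the vector differed between cultures. The series calls its 3 replicates per condition technical, so every SD, SE and p-value below measures technical spread and does not cover mice or transductions.

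BATF3 is a small basic leucine zipper protein of the AP-1 family. It has no activation domain of its own and binds DNA as a dimer with JUN proteins, alone at AP-1 sites or beside IRF4 or IRF8 at composite sites. It is best known as a factor needed for cross-presenting dendritic cells, and activated T cells also make it. Signals through the T cell receptor and CD28 switch on AP-1, NFAT and NF-κB, which drive cytokine genes, and the series title places the work in the setting of CD8 T cell memory.

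Total counts lay between 14232157 and 14337651 in the 6 stimulated libraries, so that 3 counts stood for 0.221 to 0.229 CPM (CPM are counts scaled to a common library size, the level used throughout). Such limits cover counting error only. A chi-square per degree of freedom over genes was 1.46 to 1.60 between pairs of control libraries and 1.59 between Batf3 replicates 1 and 2, but 3.16 and 2.62 between Batf3 replicate 3 and the other Batf3 libraries. In Batf3 replicate 3 mitochondrially encoded genes took 1.64% of counts, against 1.89 to 2.03% in the other 5 stimulated libraries. Without this library 2137 genes rose and 2177 fell, against 2331 and 2300 with it.

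Batf3 changed the level of many genes, mostly by small steps. Of 15702 genes tested, 4631 (29.5%) passed an adjusted p under 0.05 by quasi-likelihood in edgeR, with p-values adjusted after Benjamini and Hochberg across the tested genes, and "rose" and "fell" below are used of such genes only. Of the tested genes 14.8% rose and 14.6% fell, and the median log2 change over all of them was 0.00. At least 2-fold changes were fewer and leaned upward, with 384 genes (2.45%) that rose and 131 (0.834%) that fell. The split depended on scaling: 50.3% of the called genes rose with TMM factors, but 65.6% with library sizes alone and 42.1% with no filter on low counts.

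The direction also went with the level of the gene. Among the 2433 genes whose higher group reached at least 100 CPM, 872 fell and 441 rose. Among the 6599 genes between 10 and 100 CPM the numbers were 1102 and 1155, and among the 4820 between 1 and 10 CPM they were 307 and 653. Long noncoding RNAs were called less often than all tested genes (16.5% against 29.5%), with 108 of 899 that rose and 40 that fell. So were processed pseudogenes (19.9%), which share sequence with their parent genes, with 103 and 311 of 2082. The rises of the former and the falls of the latter lay below or near the 14.8% and 14.6% of all tested genes.

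**Figure D1:**
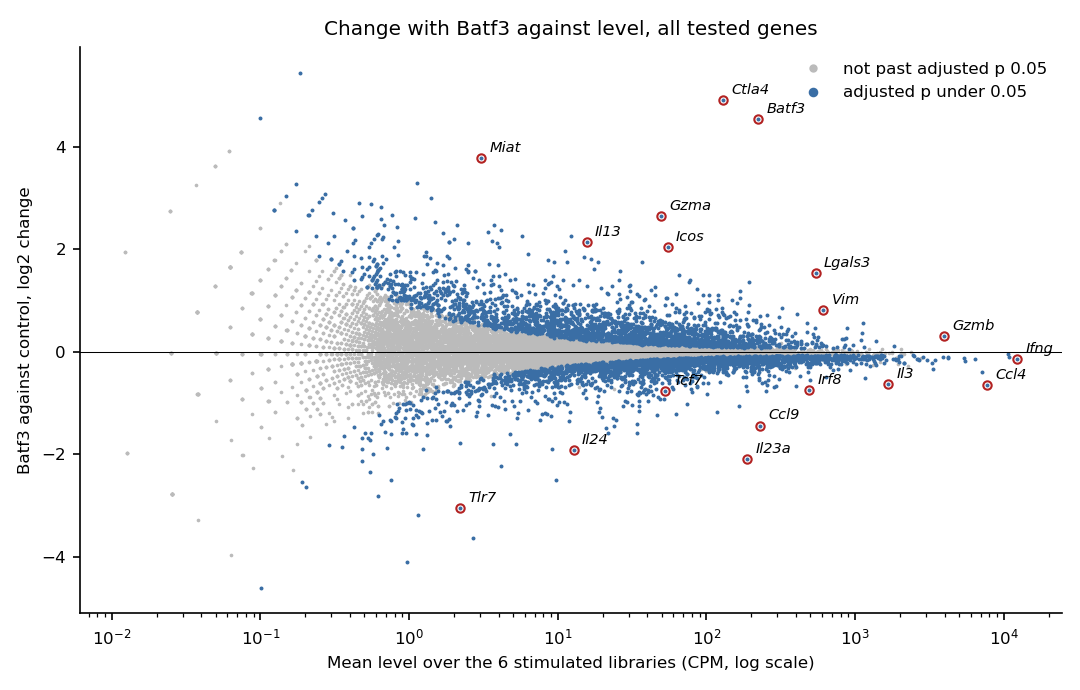
Each dot is 1 of the 15702 tested genes, with its mean level over the 6 stimulated libraries (CPM, log scale) on the x axis and its log2 change with Batf3 on the y axis; blue dots passed an adjusted p under 0.05 in edgeR. Ctla4 and Batf3 stand far above the rest at their level, and the abundant cytokine genes at the right (Ifng, Ccl4, Il3) lie below 0.

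Batf3 itself (ENSMUSG00000026630, chromosome 1, 191097847 to 191108945, GRCm38, plus strand) bore out the labels. It was at 18.3, 19.1 and 17.7 CPM in the control libraries and at 435, 414 and 434 CPM in the Batf3 libraries, a 23.3-fold difference (log2 change 4.54 ± 0.05 SE, n = 3 per group). All 3 Batf3 libraries lay far above the controls. Counts per gene do not separate transcripts of the vector from those of the chromosome.

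Ctla4 changed more than the gene in the vector. This gene for the inhibitory receptor that competes with CD28 for B7 ligands (ENSMUSG00000026011, chromosome 1, 60887000 to 60915832, plus strand) was at 8.30, 8.38 and 8.38 CPM in control libraries. In the Batf3 libraries it was at 256, 254 and 245 CPM, 30.1-fold higher (log2 change 4.91 ± 0.08, edgeR adjusted p = 1.87e-60). The groups were separated by more than an order of magnitude, with little spread inside either. In IL-15 the mean level was 90.0 CPM in control and 166 CPM in Batf3 cells, so control cells held less Ctla4 RNA in the stimulated culture and Batf3 cells held more.

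Gzma, Icos and Il13 followed among the large rises. Gzma, which encodes the tryptase granzyme A, went from 14.3, 12.7 and 13.7 CPM to 88.4, 86.0 and 81.9 CPM (log2 change 2.65 ± 0.07). Icos, the inducible costimulator next to Ctla4 on chromosome 1 (60977927 to 61000320), was at 21.8, 21.6 and 20.9 CPM in control and at 87.2, 91.4 and 86.4 CPM in Batf3 libraries (2.04 ± 0.06). Il13, a type 2 cytokine, stood at 5.25, 5.56 and 6.47 CPM against 25.7, 25.3 and 25.3 CPM (2.14 ± 0.12). Genes of this set, the largest rises and falls at 10 CPM or more, were chosen among those whose groups of libraries did not overlap, so their separation is no result. For other genes, groups without overlap are named below only as a description. They add no support to a call, which rests on the same 3 libraries per group. The share of all tested genes without overlap is not given here.

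The remaining large rises at 10 CPM or more were a mixed set. They were the magnesium channel gene Trpm6 (log2 change 2.26), the IL-7 receptor gene Il7r (1.96), the actin regulator Enah (1.84), the chemerin receptor Cmklr1 (1.82), the transcription factor Prdm1 (1.79), the NF-κB inhibitor Tnip3 (1.76), Serinc5 (1.75), the CD40 ligand gene Cd40lg (1.74), the transcription factor Maf (1.74) and the bicarbonate transporter Slc4a4 (1.62). Il7r, whose product receives the survival signal of memory T cells, was at 6.47, 3.74 and 3.50 CPM in control and 18.3, 19.8 and 15.3 CPM in Batf3 libraries. Its highest control library stood well above the other two. Prdm1, which encodes the effector factor BLIMP-1, went from 3.05, 3.89 and 4.65 CPM to 15.5, 12.2 and 12.4 CPM, and Cd40lg from 17.1, 17.7 and 16.0 CPM to 57.2, 56.9 and 55.6 CPM.

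The largest falls were led by cytokine genes and interferon-stimulated genes. Il23a, the p19 subunit of IL-23, was at 307, 304 and 303 CPM in control and at 72.9, 70.5 and 70.7 CPM in Batf3 libraries, 4.27-fold lower (log2 change -2.09 ± 0.04). Il24 (-1.92), Cxcl16 (-1.58), Il10 (-1.58) and Ccl9 (-1.44) followed in this class, and Trim30d, Ifi213, Ifi208, Oas2 and Ifi206 fell by 1.24 to 1.48 on the log2 scale. The others were Nrn1 (-1.45), the actin crosslinker Actn1 (-1.41), the heparan sulfate carrier Sdc3 (-1.35), the semaphorin Sema4c (-1.29) and the hexose transporter Slc2a6 (-1.28). Actn1, for example, stood at 46.8, 45.7 and 55.2 CPM in control and at 20.8, 18.6 and 16.2 CPM in Batf3 libraries.

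**Figure D2:**
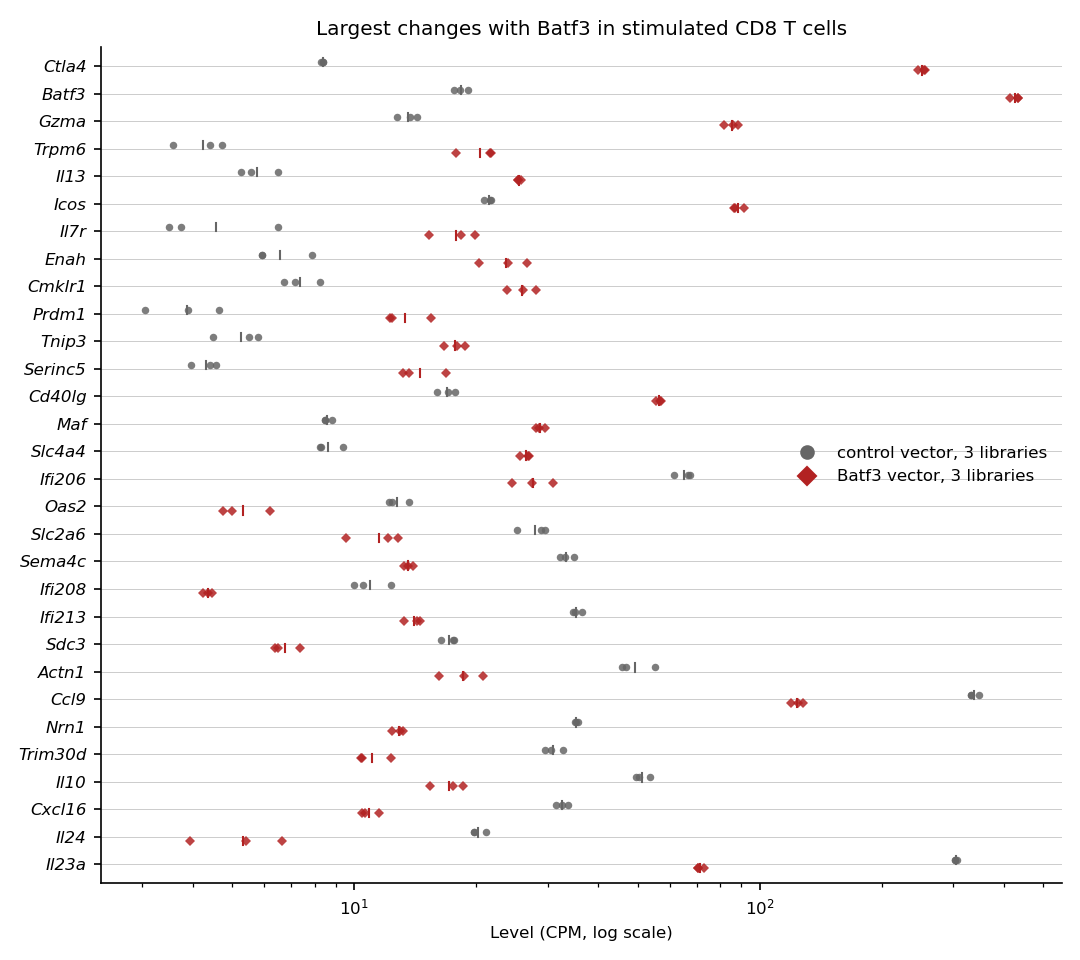
Level in CPM (log scale, x axis) of the 15 largest rises and 15 largest falls among genes at 10 CPM or more, with 1 dot per stimulated library (grey, control vector; red, Batf3 vector) and short lines at the group means. Genes were chosen for groups that do not overlap, and they run from Ctla4 at 8.35 against 252 CPM to Il23a at 305 against 71.4 CPM.

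In reads, the largest moves were in abundant genes. Ccl4, an inflammatory chemokine, fell from 9297, 9300 and 9496 CPM to 5885, 5876 and 6208 CPM, and Il3 from 2028, 1999 and 2026 CPM to 1293, 1295 and 1314 CPM. Among the rises, Lgals3, which encodes the glycan-binding protein galectin-3, gained more CPM than Batf3. Lgals3 was at 273, 282 and 280 CPM in control and 786, 807 and 829 CPM in Batf3 libraries (log2 change 1.53 ± 0.03). Ptprc, the phosphatase CD45, rose by 0.55, the filament gene Vim by 0.81, the adaptor Lcp2 by 0.46, the pyruvate kinase Pkm by 0.36 and Gzmb, granzyme B, by 0.30 on the log2 scale. Summed over all tested genes, called or not, decreases in mean level came to 72710 CPM and increases to 38430 CPM. The gap between these sums follows from the scaling and is no result. TMM factors were 0.917 to 0.920 in the control and 0.945 to 0.950 in the Batf3 libraries. The 10 largest decreases made up 15.3% of the summed decrease.

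The gene groups below are described by how many of their tested members rose and fell and by their median log2 change. The figures to read them against are the 14.8% and 14.6% of all tested genes that rose and fell, and the overall median of 0.00. These shares depend on level: of the 2433 genes at 100 CPM or more 872 fell and 441 rose. Groups of abundant genes, such as those of the proteasome or of ribosome biogenesis, are to be read against the latter counts. No group was tested as a whole. All lists and their members were chosen with earlier results of these data known, so a lopsided count can come in part from that choice.

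**Figure D3:**
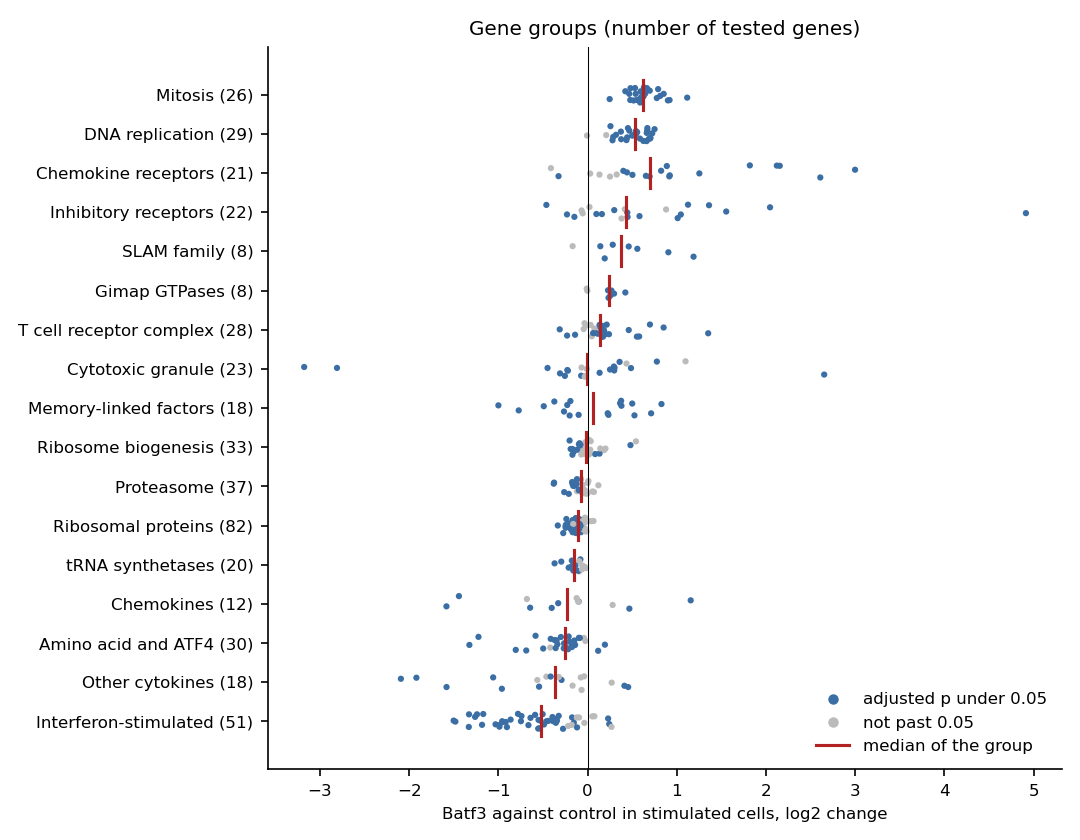
Log2 change with Batf3 in stimulated cells (x axis) for the tested members of 17 gene groups (y axis, with the number of tested genes); each dot is a gene, blue where edgeR's adjusted p was under 0.05, and the red line is the group's median. Mitosis and DNA replication genes lie to the right of 0 almost throughout, interferon-stimulated genes mostly to the left.

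Receptors that tune T cell activation rose more often than they fell. Of 18 costimulatory receptor and ligand genes 11 rose and 2 fell (median 0.20; 1 fell without Batf3 stimulated replicate 3), and of 22 inhibitory receptor and exhaustion-linked genes 13 rose and 3 fell (median 0.43). Beside Icos and Cd40lg, Slamf6 went from 105, 104 and 100 CPM to 238, 235 and 233 CPM, with no overlap between groups. Tnfrsf9 and Tnfrsf18, which encode 4-1BB and GITR, did not pass the test (952 against 966 CPM and 100 against 99.4 CPM). Among the inhibitory set Ctla4 stood alone in size. At low levels Cd200r1 (0.305 against 1.28 CPM) and Tox (0.508 against 1.51 CPM), a factor of chronic stimulation, rose too. Lag3 fell from 304 to 221 CPM, Havcr2 (TIM-3) from 257 to 219 CPM and Cd160 from 221 to 200 CPM, so the inhibitory receptors did not move as a block. In the SLAM family, whose members signal through SAP, 7 of 8 rose and none fell, with Sh2d1a, the gene for SAP itself, at 21.02 against 39.4 CPM.

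The T cell receptor complex and its proximal signalling genes rose in 19 of 28 cases and fell in 3 (median 0.14, and 0.13 without Batf3 replicate 3, with 17 rises). Cd2, an adhesion and costimulation receptor, went from 112, 106 and 111 CPM to 282, 274 and 281 CPM (log2 change 1.35 ± 0.04). Cd247, the zeta chain of the receptor complex, was at 90.2, 92.9 and 89.6 CPM in control and at 165, 163 and 164 CPM in Batf3 libraries (0.85 ± 0.04). Both genes were separated between groups by many times the spread within them. Themis rose by 0.70. Of 3 genes that fell, Csk (-0.31) and Ptpn6 (-0.23) encode brakes on the receptor and Fyn (-0.14) a kinase with activating and restraining roles. Lck at 278 against 284 CPM and Vav1 at 155 against 155 CPM did not pass the test. Of 25 Ras and Rap regulators 13 rose and 2 fell (1 without Batf3 stimulated replicate 3), among them the Ras brake Rasa3, from 13.2, 14.02 and 15.5 CPM to 35.1, 37.5 and 39.5 CPM.

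Downstream of the receptor the picture was mixed. Of 38 early response genes 15 rose and 13 fell, and their median of 0.00 turned from slightly negative to 0.04 with library sizes alone. Egr2, an inducible zinc finger factor, was at 301, 305 and 307 CPM in control and at 515, 505 and 499 CPM in Batf3 libraries. Dusp10 and Rgs2 rose by 1.11 and 0.74, while Cd69 (595 against 404 CPM), Spry2 and Ier3 fell by 0.56, 0.68 and 0.65 on the log2 scale. Nr4a1 (log2 change -0.05), Dusp2 and Crem did not pass the test. Nfatc2, which encodes the factor NFAT1, went from 68.4, 72.0 and 76.2 CPM to 130, 123 and 135 CPM, and 8 of 21 NFAT and calcium genes rose against 7 that fell. Without control stimulated replicate 1 the rises numbered 5 and without control stimulated replicate 3 they numbered 4, and with library sizes alone 4 fell. Of 22 NF-κB genes 3 rose and 8 fell, but with library sizes alone 8 rose and 6 fell; the inhibitors Tnfaip3 and Tnip1 rose by 0.24 and 0.30 and Malt1 fell by 0.44.

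Genes of the AP-1, BATF and IRF families changed unequally. The list goes beyond the JUN proteins, IRF4 and IRF8 named above as partners of BATF3. Of 24 AP-1, BATF and IRF genes 7 rose and 10 fell, Batf3 among the former. Jun went from 87.7, 87.8 and 94.4 CPM to 146, 147 and 152 CPM, and Fos from 29.8, 26.9 and 30.6 CPM to 48.4, 43.8 and 46.5 CPM. Irf4 fell from 1372, 1369 and 1355 CPM to 965, 951 and 956 CPM, and Irf8 from 606, 612 and 615 CPM to 367, 352 and 375 CPM. Batf, the closest relative of Batf3, stood at 37.2, 35.1 and 36.2 CPM against 26.7, 28.5 and 29.3 CPM (log2 change -0.36 ± 0.07), and Junb fell by 0.20. In each of these genes the 2 groups of libraries did not overlap.

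Of the most abundant cytokine genes of the stimulated cell, Ifng, Il2 and Il3 fell and Tnf did not pass the test. Among 8 genes of a list with interferon gamma, IL-2, TNF, lymphotoxins, IL-17 and IL-21, 3 rose and 2 fell (median -0.0034). Ifng, the main effector cytokine, was at 13190, 12920 and 12800 CPM in control and 11900, 11660 and 11580 CPM in Batf3 libraries (log2 change -0.15 ± 0.02), and Il2 fell by 0.22. Tnf did not pass the test (2065, 2044 and 2086 CPM against 2034, 2022 and 2048 CPM). Csf2, which encodes GM-CSF, fell from 363 to 228 CPM beside its neighbour Il3. At low levels Il17a (2.13 against 5.95 CPM), Il17f (6.47 against 12.03 CPM) and Il21 (0.533 against 2.08 CPM) rose, as did Il13. Of 18 other interleukin and growth factor genes 2 rose and 8 fell, 4 of them at least 2-fold (median -0.37), led by Il23a, Il24 and Il10. Il10, an anti-inflammatory cytokine, was at 53.8, 49.6 and 50.4 CPM against 18.5, 17.5 and 15.3 CPM, and Il24 at 19.8, 19.7 and 21.1 CPM against 3.94, 5.42 and 6.64 CPM.

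Of 12 chemokine genes 6 fell and 2 rose (median -0.23). Ccl9 was at 333, 347 and 331 CPM in control and at 120, 128 and 124 CPM in Batf3 libraries. Ccl3 and Ccl1 fell by 0.40 and 0.33. Xcl1, the ligand of XCR1 on cross-presenting dendritic cells, fell by 0.10, a call that was lost with library sizes alone. Ccl5, stored by memory CD8 T cells, rose from 448 to 619 CPM, and Ccl20 from 1.98 to 4.42 CPM. Among 13 TNF superfamily ligands 4 rose and 4 fell: Cd40lg stood at the top and Cd70, the ligand of CD27, at the bottom (92.0, 96.7 and 93.1 CPM against 58.1, 59.4 and 67.9 CPM).

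**Figure D4:**
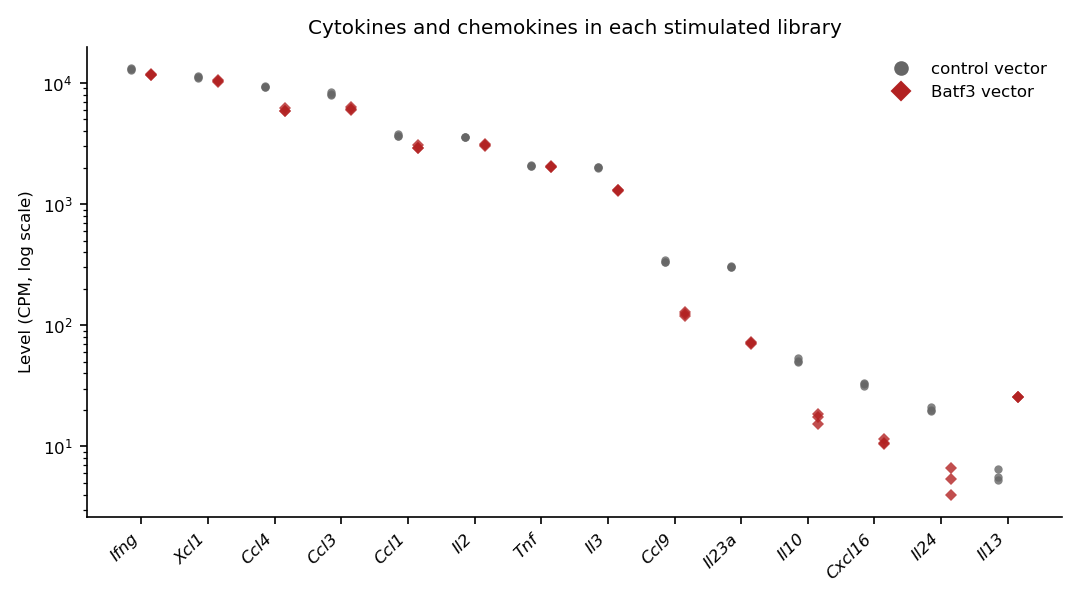
Level in CPM (log scale, y axis) of 14 cytokine and chemokine genes, with 1 dot per stimulated library (grey, control vector; red, Batf3 vector). Ifng (12970 against 11710 CPM on average) and Tnf (2065 against 2035 CPM) lie close together in both groups, Ccl4 (9364 against 5990 CPM) and Il3 (2018 against 1301 CPM) further apart, those at 20 to 340 CPM were lower with Batf3, and Il13 was higher.

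Chemokine and homing receptors moved the other way from the chemokines. Of 21 tested, 15 rose, 6 of them at least 2-fold, and 1 fell, the prostaglandin receptor gene Ptger2 (median 0.69). Most of the large changes were at low levels: Ccr1 (0.305 against 2.49 CPM), Ccr3 (0.305 against 1.90 CPM) and Ccr8 (1.60, 0.991 and 1.37 CPM against 6.84, 5.49 and 5.38 CPM). Ccr7, a lymph node homing receptor, did not pass the test (35.6 against 39.0 CPM). Of 27 integrin and adhesion genes 13 rose and 9 fell. Itga2, a collagen-binding chain, rose from 1.14 to 6.35 CPM and Itgax from 17.6 to 43.7 CPM, while Itgb1, the common beta chain, fell from 310 to 197 CPM.

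Cytokine receptors rose in 14 of 27 cases and fell in 8. After Il7r the largest rises were Il1rl1, the IL-33 receptor, from 50.5, 52.1 and 51.7 CPM to 114, 127 and 119 CPM, and Tgfbr3 from 4.39 to 9.61 CPM. Il10ra fell from 36.9 to 22.7 CPM beside its ligand Il10. In the purinergic group 4 of 15 rose and 3 fell. P2rx7, the ATP-gated channel, was at 1.96 against 5.43 CPM, and Nt5e, the CD73 enzyme that makes adenosine, at 23.2, 22.1 and 22.0 CPM against 48.2, 50.1 and 45.1 CPM. Ptger4, a prostaglandin E2 receptor, rose from 134, 133 and 136 CPM to 254, 254 and 256 CPM, while Ptger2, another, was at 76.8 against 61.2 CPM. Among 25 galectin and glycosyltransferase genes 12 rose and 6 fell, with Lgals3 up and Lgals9 down (37.5 against 19.2 CPM).

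Transcription factors linked to memory and effector fate did not sort by fate. Of 18 memory-linked factors 9 rose and 9 fell. Tcf7, the stem-like memory factor TCF-1, was at 66.7, 65.0 and 68.6 CPM in control and at 39.1, 40.1 and 38.1 CPM in Batf3 libraries (log2 change -0.77 ± 0.05). Klf3 fell by 1.00 and Klf7 by 0.49. Bcl6 rose from 15.8, 20.1 and 19.7 CPM to 32.2, 32.9 and 33.6 CPM, Myb by 0.71 and Foxo1, which maintains Il7r, from 72.0 to 104 CPM. Of 21 effector-linked factors 10 rose and 7 fell. Beside Prdm1, Runx1 went from 8.68, 9.22 and 9.52 CPM to 22.2, 21.4 and 23.5 CPM and Stat4, the IL-12 signal transducer, from 27.9, 26.6 and 24.4 CPM to 63.7, 63.3 and 63.6 CPM. Eomes fell by 0.19. Tbx21, the T-bet gene, was at 171, 165 and 168 CPM against 181, 178 and 178 CPM (log2 change 0.09), and its edgeR adjusted p of 0.0404 was lost without any one of the 12 libraries.

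Factors of other T cell lineages rose in 9 of 17 cases and fell in 4 (median 0.49). Gata3, the Th2 factor, was at 20.9 ± 1.801 CPM in control and 41.2 ± 2.33 CPM in Batf3 libraries (SD, n = 3 each). Maf, a factor of cytokine expression in helper T cells, was at 8.58 against 28.7 CPM. Foxp3, the regulatory T cell factor, rose from 1.37, 1.37 and 0.609 CPM to 5.80, 4.30 and 6.93 CPM. It stayed at a low level, and of 18 regulatory T cell genes 9 rose and 6 fell. Pparg fell from 8.66 to 3.93 CPM. All of the named genes were separated between groups, but Maf belongs to the set chosen for separation, so for Maf this is no result.

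Cytotoxic granule genes split by granzyme. Of 23 tested, 9 rose and 8 fell. Gzma, Gzmb and Prf1, the pore-forming perforin (90.6, 94.1 and 96.0 CPM against 162, 159 and 159 CPM), rose, as did Cst7 by 0.49. Gzmd (2.08 against 0.222 CPM) and Gzme (1.09 against 0.148 CPM), 2 members of a cluster of similar granzyme genes on chromosome 14 whose reads can be hard to tell apart, fell to levels of about 3 counts per library or below. Nkg7 did not pass the test (882 against 876 CPM).

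Cell cycle genes leaned upward, mitosis genes most uniformly, in lists chosen with earlier results of these data known. All 26 mitosis genes rose, with a median of 0.62, and they did so under each of the 18 alternative settings. Mki67, the Ki-67 proliferation marker, was at 76.3, 78.7 and 71.1 CPM in control and at 165, 167 and 158 CPM in Batf3 libraries (log2 change 1.12 ± 0.04). Prc1 and Cenpf, of the spindle midzone and the kinetochore, rose by 0.92 and 0.90. Of 29 DNA replication and nucleotide synthesis genes 27 rose and none fell (median 0.54); Rrm2, a ribonucleotide reductase subunit, went from 27.2, 26.7 and 26.0 CPM to 44.4, 44.5 and 45.4 CPM. Tk1 did not pass the test (13.4 against 15.5 CPM). Among cyclins, their kinases and inhibitors 15 of 22 rose and 3 fell. Ccnd1, cyclin D1, was at 22.2, 28.2 and 25.9 CPM against 51.1, 52.2 and 52.1 CPM, and Cdkn1a, the p21 inhibitor, fell from 398, 411 and 418 CPM to 301, 310 and 321 CPM.

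The effect on DNA replication genes differed between cultures. In the IL-15 cultures 16 of the 29 fell and 2 rose, with a median of -0.15. Of all 15702 tested genes 39.3% passed the test there, 3615 that fell and 2560 that rose. The Batf3 effect was higher in stimulated cells than in IL-15 by edgeR's test of the difference for 26 of the 29 genes, against 14.6% of all tested genes (20.7% differed in either direction), and was lower for none, against 6.08%. Mitosis genes rose in both cultures, with a median of 0.38 in IL-15, and 14 of 26 rose more in stimulated cells. For the T cell receptor complex the median was -0.10 in IL-15, and 22 of 28 genes had a higher Batf3 effect in stimulated cells. Cd2, for example, stood at 165, 173 and 174 CPM in control and 169, 181 and 176 CPM in Batf3 cells in IL-15. The groups overlapped there and lay apart in the stimulated culture.

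**Figure D5:**
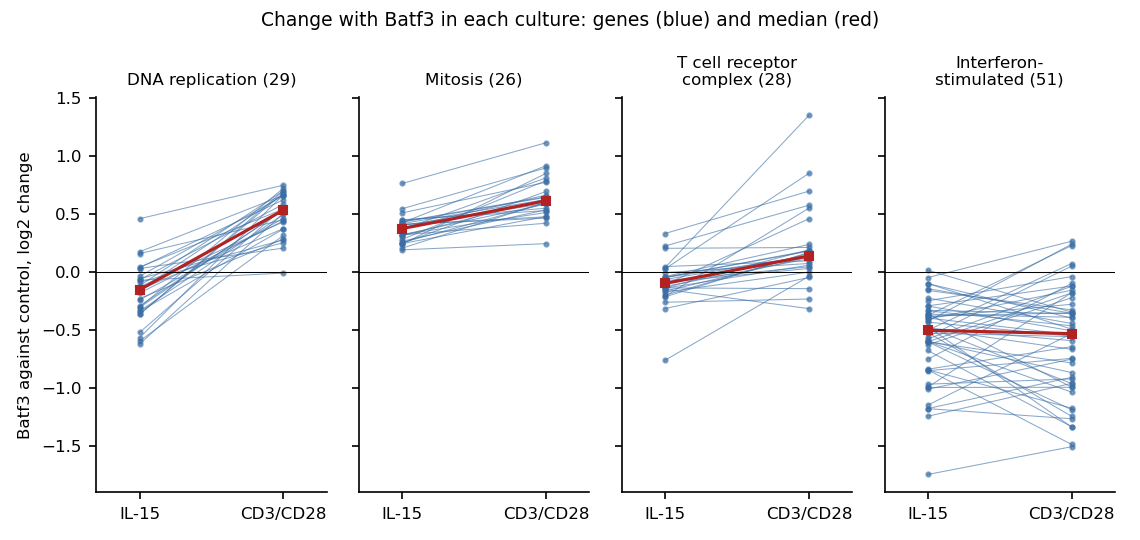
Log2 change with Batf3 (y axis) in IL-15 culture and after CD3/CD28 stimulation (x axis) for the tested genes of 4 groups; blue lines join the values of 1 gene and the red line joins the medians. DNA replication genes go from a median of -0.15 to 0.54, mitosis genes from 0.38 to 0.62, T cell receptor complex genes from -0.10 to 0.14, and interferon-stimulated genes have medians of -0.50 and -0.53, with single genes going both ways.

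Interferon-stimulated genes fell broadly. Of 51 tested 41 fell, 9 of them at least 2-fold, and 2 rose (median -0.53). The falls numbered 41 to 43 under every alternative setting, and the rises were 4 with library sizes alone. Trim30a, an interferon-induced TRIM protein, was at 170, 160 and 158 CPM in control and at 71.0, 77.3 and 66.5 CPM in Batf3 libraries (log2 change -1.18 ± 0.04). Ifi206 and Ifi213, DNA-sensing family members, were at 67.4, 66.6 and 61.6 CPM against 31.0, 27.4 and 24.5 CPM and at 36.4, 35.1 and 34.6 CPM against 14.5, 14.3 and 13.3 CPM. Irf7, the amplifier of interferon genes, fell from 47.1 to 27.4 CPM, and Stat2 by 0.50 on the log2 scale. The 2 that rose were Ifit1 (53.2 against 62.4 CPM) and Oasl1 (46.1 against 54.6 CPM). In IL-15 culture, with separate libraries, 49 of the 51 fell and none rose. By the test of the difference the Batf3 effect was higher after stimulation for 15 of the 51 and lower for 19, against 14.6% and 6.08% of all tested genes. Of the 2560 genes that rose in IL-15 1097 rose here too, 42.9% of the former and 47.1% of the 2331 rises, and 1328 genes fell in both, 36.7% of the 3615 falls in IL-15 and 57.7% of the 2300 here.

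Antigen presentation genes fell less. Of 23 genes on a list of MHC class I presentation 13 fell and 1 rose (median -0.12), with Tap1, the peptide transporter, at 249 against 204 CPM. The list also holds Cd74, the invariant chain of MHC class II, which fell from 72.6 to 53.1 CPM. H2-D1, a classical class I gene, did not pass the test (1480 against 1460 CPM); class I genes are near copies of each other. Guanylate-binding and related GTPases, which interferon gamma induces, moved both ways: 6 of 18 fell, among them Gvin1 (298 against 197 CPM), and 3 rose, among them Gbp2 (112 against 148 CPM). Tlr7, a sensor of single-stranded RNA, was at 4.19, 4.19 and 3.43 CPM in control and 0.521, 0.371 and 0.516 CPM in Batf3 libraries.

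Genes of amino acid supply and protein synthesis fell by small amounts. Of 30 genes of serine and one-carbon metabolism and the ATF4 response 25 fell and 2 rose, or 1 without control stimulated replicate 2 (median -0.26). Slc7a3, an arginine transporter, was at 87.2, 90.0 and 86.8 CPM in control and at 35.5, 41.2 and 36.4 CPM in Batf3 libraries. Psat1 did not pass the test (411 against 404 CPM). Of 20 tRNA synthetases 14 fell and none rose (median -0.16), with Aars at 386 against 299 CPM. Of 82 ribosomal protein genes 64 fell and none rose (median -0.11), but with library sizes alone 35 fell and the median was -0.06. Of 37 proteasome genes 15 fell and none rose, or 7 and 1 with library sizes alone. Myc fell by 0.08, a call lost with library sizes alone, and of 33 Myc and ribosome biogenesis genes 9 fell and 3 rose, with a median of -0.02; under that scaling 5 fell and the median was 0.02. In IL-15 the median of the last group was -0.43, and 29 of its 33 genes had a higher Batf3 effect in stimulated cells. Of 28 glycolysis genes 11 fell and 4 rose, and Pkm was among the latter.

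Survival genes moved in both directions. Bcl2, the anti-apoptotic founder of its family, was at 78.0, 72.6 and 72.3 CPM in control and at 130, 131 and 128 CPM in Batf3 libraries (log2 change 0.80 ± 0.04). Bcl2l11, which encodes the pro-apoptotic BIM, was at 201, 207 and 211 CPM against 144, 150 and 147 CPM (-0.49 ± 0.03), and Bmf, of the same BH3-only class, at 3.96 against 1.66 CPM. The groups of libraries did not overlap in any of these genes. Over the lists, 9 of 20 anti-apoptotic genes rose and 4 fell, and 7 of 20 pro-apoptotic genes rose and 4 fell. Pmaip1 (NOXA) and Fas, both pro-apoptotic, rose by 0.53 and 0.41, and Pim1 fell by 0.25. Of the 8 Gimap genes, which encode lymphocyte survival GTPases, 6 rose and none fell (median 0.24).

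At levels of 1 to 10 CPM the largest changes reached higher ratios. Miat, a long noncoding RNA, rose from 0.685, 0.229 and 0.305 CPM to 5.80, 4.08 and 7.16 CPM, and Atp6v0d2, Ccr1, Cdh17, Esm1, Ccr3, Ccdc80 and Fmnl2 rose by 2.54 to 3.30 on the log2 scale. Ffar4, a fatty acid receptor, was at 1.37, 2.52 and 1.60 CPM in control and at 0.0744, 0.223 and 0 CPM in Batf3 libraries. Pfpl (5.63, 3.66 and 5.64 CPM against 0.670, 0.297 and 0.221 CPM) and the Notch ligand Dll4 (7.23, 6.86 and 6.47 CPM against 1.78, 1.56 and 1.03 CPM) fell as well, as did Tnfrsf11b and Islr2. The Batf3 libraries of Ffar4, Gzmd, Gzme and Tnfrsf11b lay near the level of 3 counts, so their fold changes are poorly fixed. Scn11a had no count in the control libraries and Ly6g none in the Batf3 libraries, with at most 0.664 and 0.229 CPM in a library of the other group.

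Markers of other cells were checked beside these results. The CD8 identity genes were present at a summed 2902 to 2952 CPM in control and 3244 to 3322 CPM in Batf3 libraries, and 10 of 11 rose, none fell. Cd8a rose by 0.17. Cd4 was at 0.0761, 0.457 and 0.381 CPM against 0.149, 0.668 and 0.148 CPM, near the level of 3 counts. Of 7 tested markers of CD4 T cells 6 rose, among them Icos and Cd40lg, which activated CD8 T cells can also express, and Foxp3, with summed levels of 818 to 836 against 1001 to 1048 CPM. B cell markers summed to 53.8 to 57.5 against 43.3 to 47.0 CPM, with 1 of 12 at 0 in each group, and 1 of the 6 tested fell. Myeloid markers summed to 8.45 to 12.3 against 15.9 to 19.3 CPM, with 8 and 6 of 16 at 0; 2 of 5 tested rose and 1 fell. Erythroid markers summed to at most 4.35 CPM, and none of 3 tested passed the test. Markers of NK and innate lymphoid cells summed to 735 to 748 against 762 to 793 CPM, and of 10 tested 4 rose and 3 fell. Dendritic cell markers summed to 758 to 769 against 893 to 940 CPM, a list that holds Batf3 and Irf8. Batf3, the gene in the vector, alone stood at 18.4 against 427 CPM. Of the 9 tested members 4 rose and 4 fell, and Irf8 and Bst2 (87.7 against 56.2 CPM) were among the falls. Stromal, endothelial and epithelial markers summed to 20.6 to 21.2 against 27.9 to 32.9 CPM, with 5 of 7 rising. With DESeq2, with the stimulated libraries alone or without control stimulated replicate 3 the rises numbered 3. The part of other cells in the results was not tested, and in bulk RNA fewer cells of a type cannot be told apart from less RNA per cell.

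To set the largest changes beside the DNA near their start sites, the 250 bases before to 50 after each RefSeq start (GRCm38.p6) were searched on both strands for the AP-1 motif TGANTCA. The motif stood in 6.31% of the 10047 tested genes with a window, in 7.94% of 1687 rises, 7.19% of 1516 falls, 10.6% of 246 rises of at least 2-fold and 11.2% of 80 such falls. The 2 AP-1 and IRF composite motifs, in which the IRF letters GAAA stand 4 bases before TGANTCA or directly before it, both contain the first motif. They stood in 0.0995% and 0.109% of all windows and in none or 1 of the windows of genes with changes of at least 2-fold. Among the 30 genes with the largest changes at 10 CPM or more, 21 had a window and 4 held TGANTCA: Prdm1, Ccl9, Sema4c and Trim30d. Shown are 3 stretches of 250 bases that end just before the start site, the largest change, which has no match, and 1 rise and 1 fall with a match, in capitals.
Ctla4 (chr1:60908775-60909024, plus strand): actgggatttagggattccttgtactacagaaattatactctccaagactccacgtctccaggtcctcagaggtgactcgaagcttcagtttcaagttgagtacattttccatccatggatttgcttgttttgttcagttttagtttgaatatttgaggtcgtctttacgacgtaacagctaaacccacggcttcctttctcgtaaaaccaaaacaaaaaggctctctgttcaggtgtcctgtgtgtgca
Prdm1 (chr10:44458749-44458998, minus strand): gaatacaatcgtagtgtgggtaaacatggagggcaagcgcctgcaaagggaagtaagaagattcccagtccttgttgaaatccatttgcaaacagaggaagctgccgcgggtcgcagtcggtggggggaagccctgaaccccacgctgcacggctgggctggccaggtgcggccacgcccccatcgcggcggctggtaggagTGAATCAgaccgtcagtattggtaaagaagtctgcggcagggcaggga
Ccl9 (chr11:83578637-83578886, minus strand): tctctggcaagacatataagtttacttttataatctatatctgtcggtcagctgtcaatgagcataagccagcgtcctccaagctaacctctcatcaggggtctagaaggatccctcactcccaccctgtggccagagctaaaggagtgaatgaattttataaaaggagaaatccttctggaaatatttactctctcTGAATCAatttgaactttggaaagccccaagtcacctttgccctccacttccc
In Prdm1 the match begins 48 bases before the start and in Ccl9 53 bases before it, and both read TGAATCA. The Ctla4 and Prdm1 windows belong to the RefSeq start and lie inside the longer gene bounds of GENCODE M21. These matches describe letters in a window; binding was not measured.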

How the data were processed

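RNA-seq counts from 12 libraries were analysed, and 6 enter the comparison itself. Per the labels' protocols, polyadenylated RNA from 100 ng of total RNA was made into stranded libraries with 15 PCR cycles. The deposited values are whole-number read counts per gene. Per the submitters' processing notes the authors used STAR 2.7, featureCounts and GRCm38. How strand and multiply aligned reads were treated, and which annotation release was used, is not given in the sources used here. Unstated strand and multiple alignment can affect overlapping genes and near copies.

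The table held 55335 genes. In R 4.3.3, edgeR 4.0.16 kept 15702 genes (filterByExpr defaults), scaled libraries with TMM factors and fitted 4 group means to 12 libraries by robust quasi-likelihood, with 8 residual degrees of freedom. Tests were two-sided, with Benjamini-Hochberg adjustment over all tested genes and a threshold of 0.05. A further contrast was the Batf3 effect in stimulated minus that in non-stimulated cells. CPM carry no pseudocount. Log2 changes are ± SE. The fit was tested on simulated data. Coordinates are from GENCODE M21 (GRCm38), which held 55154 of the identifiers, and promoter windows from RefSeq (GRCm38.p6).

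Counts over 67 gene lists refer to members that passed the filter. Members and lists were chosen with earlier results of these data known. Named genes were the 15 largest separated rises and falls at 10 CPM or more, the 8 largest each way at 1 to 10 CPM, the 10 largest CPM differences each way, the 8 largest differences between cultures each way, up to 3 called genes per list and direction, up to 2 uncalled genes per list, genes with no counts in one group, and a fixed set of T cell genes. Replicate numbers did not pair the samples: correlations of deviations were -0.148 to 0.0806 for the same number and -0.199 to 0.153 for other numbers. Alternatives were library sizes alone, DESeq2 1.42.0, other filters, a replicate block, the stimulated libraries alone and leaving out each library.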

Additional observations from a re-analysis of the deposited data

Results flagged for a closer look

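The Batf3 effect differed between stimulated and IL-15 cultures for 3250 genes (20.7% of those tested) by edgeR's test of the difference at an adjusted p under 0.05. The genes below had the largest such differences at 10 CPM or more, each the log2 change with Batf3 after stimulation minus that in IL-15. Ctla4 had a difference of 4.03 (4.91 against 0.88) and Batf3 one of -1.58 (4.54 against 6.12), with a control level of 18.4 CPM after stimulation and 6.77 CPM in IL-15. Samd4 (2.72), Ccnd1 (2.64), Stra6 (1.87), Arsb (1.82), Dusp14 (1.75), Casz1 (1.71) and Map2k3os (1.57) had higher effects after stimulation. Of these Ccnd1 rose after stimulation (log2 change 1.03) and fell in IL-15 (-1.61), where it stood at 0.192 to 1.13 CPM. Samd4 fell in IL-15 (-2.48); its rise of 0.24 after stimulation was lost with DESeq2 and without control stimulated replicate 2, control stimulated replicate 3 or Batf3 stimulated replicate 1. Arsb, a lysosomal sulfatase, went from 7.005, 7.85 and 7.08 CPM to 20.01, 17.8 and 16.2 CPM after stimulation and fell by 0.53 in IL-15.

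Lower effects after stimulation were found for Cth (-3.23), Il23a (-2.80), Il10 (-2.09), Il24 (-1.80), Sulf2 (-1.73), Sox4 (-1.62) and Swap70 (-1.47). Swap70, an actin-binding signalling protein of lymphocytes, was at 45.4, 47.6 and 49.9 CPM against 22.0, 22.5 and 24.1 CPM after stimulation, and rose by 0.41 in IL-15. Il23a, Il10 and Cth were all but silent in IL-15 (Il23a at 0.309 and Il10 at 0.133 CPM in control cells), so their effects there rest on few counts. Egr2 moved in opposite directions: it rose by 0.73 after stimulation and fell by 0.33 in IL-15, a difference of 1.06.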

How the results depend on the processing

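Across the 18 alternatives, rises numbered 1829 (DESeq2) to 2979 (library sizes alone) and falls 1561 (library sizes alone) to 2666 (no filter), each within 1.5 times the 2331 and 2300 reported, and no gene called in the reported fit was called in the opposite direction. At least 2-fold rises numbered 289 to 427 and falls 108 to 147. Of the genes with a higher Batf3 effect after stimulation, 2296 became 1524 with no filter on low counts, where 32686 genes were tested. Leaving out 1 library gave 1909 to 2325 rises, 2053 to 2415 falls, 1565 to 2263 higher and 824 to 1137 lower effects after stimulation. Without Batf3 stimulated replicate 3, 1977 of the 2331 rises and 1945 of the 2300 falls remained. The replicate block gave 2272 rises and 2238 falls, and 2239 and 937 differences between cultures; samples share only a number, so it says nothing of pairing. Of 348 called genes chosen for naming, 300 kept their call in all alternatives in which they were tested and 48 lost it in at least 1; none reversed. Library sizes alone moved the median of all genes to 0.05, which is where the small shifts of ribosomal protein, proteasome and NF-κB genes depend on scaling. Depth limits genes below about 1 CPM, of which 5.46% were called.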

Other observations

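Chromatin regulators leaned upward, with 11 of 27 that rose and 2 that fell (1 with library sizes alone or without Batf3 stimulated replicate 2). Dnmt1, the maintenance DNA methyltransferase, was at 79.2 against 118 CPM and Jarid2 and Chd7 rose by 0.65 each, while the de novo enzyme gene Dnmt3a fell by 0.14. Replication-dependent histone genes rose in 11 of 50 cases (7 without control stimulated replicate 3) and none fell, at levels of a few CPM; most of their transcripts lack a poly(A) tail, and the libraries were selected for poly(A). Among 32 actin cytoskeleton genes 12 rose and 11 fell, with Enah among the former and Actn1 among the latter.

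Lipid genes split as well. Of 32 cholesterol and fatty acid synthesis genes 9 fell and 3 rose: Hmgcs1 fell (38.7 against 26.2 CPM), Lss rose (17.8 against 25.8 CPM), and their median of -0.04 turned to 0.00 with library sizes alone. Of 211 solute carrier genes 36 rose and 41 fell, but with DESeq2 20 rose and 37 fell, with no filter on low counts 23 and 47, and without control stimulated replicate 1 only 22 rose. Among Toll-like receptors, Tlr6 (1.96 against 5.14 CPM) and Tlr1 (6.27 against 11.2 CPM) rose and Tlr7 fell. Mitochondrially encoded genes summed to 20570 to 21250 CPM in control and 16620 to 20040 CPM in Batf3 libraries; 4 of 13 fell, with a median of -0.20. That count is not stable: 8 fell without Batf3 stimulated replicate 1, 2 without any one of the 3 control stimulated libraries or Batf3 non-stimulated replicate 1, 2 in the stimulated libraries alone or with the replicate block, and 1 with library sizes alone. Without Batf3 stimulated replicate 3, the library with the lowest share, 3 fell and 1 rose, with a median of -0.11.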
